A study of Mus musculus with 14 samples.

Results

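Integrins are cell surface receptors built from an alpha and a beta subunit, and the alpha subunit sets much of which matrix protein or counter-receptor is bound. In ECs they anchor the cell to the laminin and collagen of the basement membrane, to fibronectin and to other matrix proteins, while those of leukocytes serve adhesion to vessel walls. Some alpha v integrins also release active TGF-beta from its latent complex. The 10 genes described here are the alpha subunits *Itga1* to *Itga9* and *Itgav*, chosen by name, and each was present among the 26528 gene symbols of the brain data and the 28316 of the retina data. The study itself singled out integrins in these libraries, so the direction of their changes here is not independent evidence.

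Nuclei of whole retinas and of brain vascular fragments were profiled by snRNAseq with PIPseq, a droplet method in which molecular tags (UMIs) let every captured RNA be counted a single time. The retina was sampled in 1 control (WT) library and 11 *Cdh5CreER;Tgfbr1 CKO/-* (CKO) libraries, and the brain in 1 library of each genotype. CKO mice carried 1 floxed and 1 null *Tgfbr1* allele, and 4-hydroxytamoxifen (4HT) was given between postnatal day (P)3 and P5, while the control labels name no 4HT. For its eye sections the study describes controls as phenotypically WT, typically with *Cdh5CreER* and 1 floxed allele. Whether this holds for the control libraries is not stated. The study's methods give the age as P14, whereas the series text calls the mice young adults. *Cdh5CreER* drives Cre in ECs, so in other cell types the receptor gene was not the target of the deletion. The null allele was not limited to ECs. In every cell type its part cannot be told apart from that of the deletion in ECs. Each brain library pooled 2 brains. No retinal nuclei carried an EC label, so the retina shows the members only outside the targeted cells.

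Brain libraries held 49798325 UMIs in 16649 nuclei (control) and 31033373 UMIs in 14675 nuclei (CKO). The control retina library held 30989702 UMIs in 11513 nuclei. CKO retina replicate 4 stood apart from all others, with 104 nuclei and 90449 UMIs, and CKO replicate 5 was the largest, with 18862 nuclei and 55803724 UMIs. Cell barcodes shared with another library numbered 2 in each brain library and 0 to 4 in the retina libraries. In nuclei labeled ECs, *Xist* had 2247 CPM (counts scaled to the summed UMIs of the label in that library) in the control brain and 0.292 CPM in the CKO brain, so the brain libraries also differed in a sex-linked transcript. Any difference in sex between the pooled brains would coincide with genotype, and its part in the brain ratios was not tested. *Tgfbr1* itself had 69.1 CPM in control and 62.9 CPM in CKO ECs. UMIs from the 3′ end of a transcript do not report an upstream deletion, and this value does not test the knockout.

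The label ECs covered 2475 control nuclei with 5801552 UMIs and 2944 CKO nuclei with 6851854 UMIs. All 9 EC markers were detected in both libraries, with a summed level of 13305 CPM in control and 10039 CPM in CKO, and *Flt1* was the most abundant. They did not move together, as *Cdh5* was past 1.5-fold upward, with 667 and 1003 CPM, and *Ptprb* and *Slco1a4* downward, with ratios of 0.527 and 0.645. All 8 pericyte markers were detected too, summing to 8390 CPM in control and 7127 CPM in CKO, led by *Rgs5* at 5631 and 4831 CPM. The EC label therefore held pericyte transcripts in both libraries, and only 363 control and 133 CKO nuclei had no pericyte marker UMI. In nuclei labeled pericytes, the pericyte markers summed to 29168 CPM in control, but that label held 201 nuclei in control and 22 in CKO. The label glia was led by fibroblast markers, at 8284 CPM in control and 9351 CPM in CKO, against 1879 and 1707 CPM for astrocyte markers.

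With 1 brain library per genotype there was no test of the genotype, and intervals in brackets are 95% intervals that cover counting error only. A gene was called past a fold of 1.5 where it had at least 50 UMIs over both libraries. In ECs all 10 members reached that depth. *Itga2* and *Itga4* were past 1.5-fold upward and *Itga5*, *Itga8* and *Itga9* past 1.5-fold downward. Across 11351 genes, 21.4% were past the same fold upward and 9.32% downward, so 2 of 10 upward was near the background share. The median log2 ratio was 0.08 over the members and 0.14 over all genes. Scaling by TMM factors lowered every log2 ratio by 0.10, which put *Itga3* below 1 in place of above it, at 0.945.

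The collagen receptors were both higher in the CKO library. *Itga2* encodes the subunit that pairs with beta 1 into a receptor for fibrillar collagen, best known from platelets and epithelium. In control ECs it had 23 UMIs (3.96 CPM), and in CKO ECs it had 382 UMIs (55.8 CPM). The ratio was 14.1 (9.23 to 22.5), the 14th highest of the 11351 genes. *Itga1*, whose product binds collagen IV of the basement membrane, had 1464 CPM in control and 1780 CPM in CKO ECs, a ratio of 1.22 (1.18 to 1.25) that lies below the 1.5-fold limit. In EC nuclei with no pericyte marker UMI the *Itga1* ratio was past it, at 2.46 (1.95 to 3.11), from 165 and 138 UMIs. This was the only setting to put it there, and in nuclei with a pericyte marker share (described below) of 0 to 25%, 25 to 50% and 50 to 75% the ratios were 1.25, 1.22 and 1.11.

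Of the laminin receptors, *Itga6*, a subunit of laminin receptors in vessels and epithelium, had 444 CPM in control and 567 CPM in CKO ECs, a ratio of 1.28 (1.21 to 1.34). *Itga3* had 19.0 and 19.3 CPM, with a ratio of 1.02 (0.783 to 1.32). *Itga7*, the laminin receptor of muscle, had 16.5 and 18.2 CPM, with a ratio of 1.10 (0.838 to 1.45). The counting intervals of *Itga3* and *Itga7* included 1. *Itga7* depended on how nuclei were chosen and weighted. Its ratio was past 1.5 with nuclei weighted equally (1.57), but was 0.686 (0.563 to 0.833) in nuclei chosen by EC markers. With nuclei thinned to 500 UMIs both genes had under 50 UMIs and random draws differed. In the draw used for ratios *Itga7* had 12 control and 25 CKO UMIs, and in that used for shares it was found in 13 and 16 nuclei. *Itga3* had 11 and 23 UMIs in the former and was found in 15 and 20 nuclei in the latter.

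The receptors for the RGD sequence of fibronectin, vitronectin and related proteins were lower in the CKO library. *Itga5*, which forms the main fibronectin receptor, had 97.7 CPM in control and 63.2 CPM in CKO ECs, a ratio of 0.647 (0.569 to 0.734). *Itga8*, a receptor for nephronectin, had 19.5 and 9.49 CPM, a ratio of 0.487 (0.353 to 0.667). *Itgav*, a partner of several beta subunits, had 94.5 and 77.8 CPM, a ratio of 0.824 (0.730 to 0.930), short of the limit. For each of these the counting intervals of the ratio lay below 1.

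The remaining subunits, *Itga4* and *Itga9*, differed in direction. *Itga4*, whose product binds VCAM1 and fibronectin, had 394 CPM in control and 627 CPM in CKO ECs, a ratio of 1.59 (1.51 to 1.68). With TMM factors this ratio was 1.48, under the 1.5-fold limit. *Itga9*, which binds tenascin C and other ligands and is needed for lymphatic valves, had 13.6 and 8.03 CPM, a ratio of 0.589 (0.410 to 0.842).

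**Figure D1:**
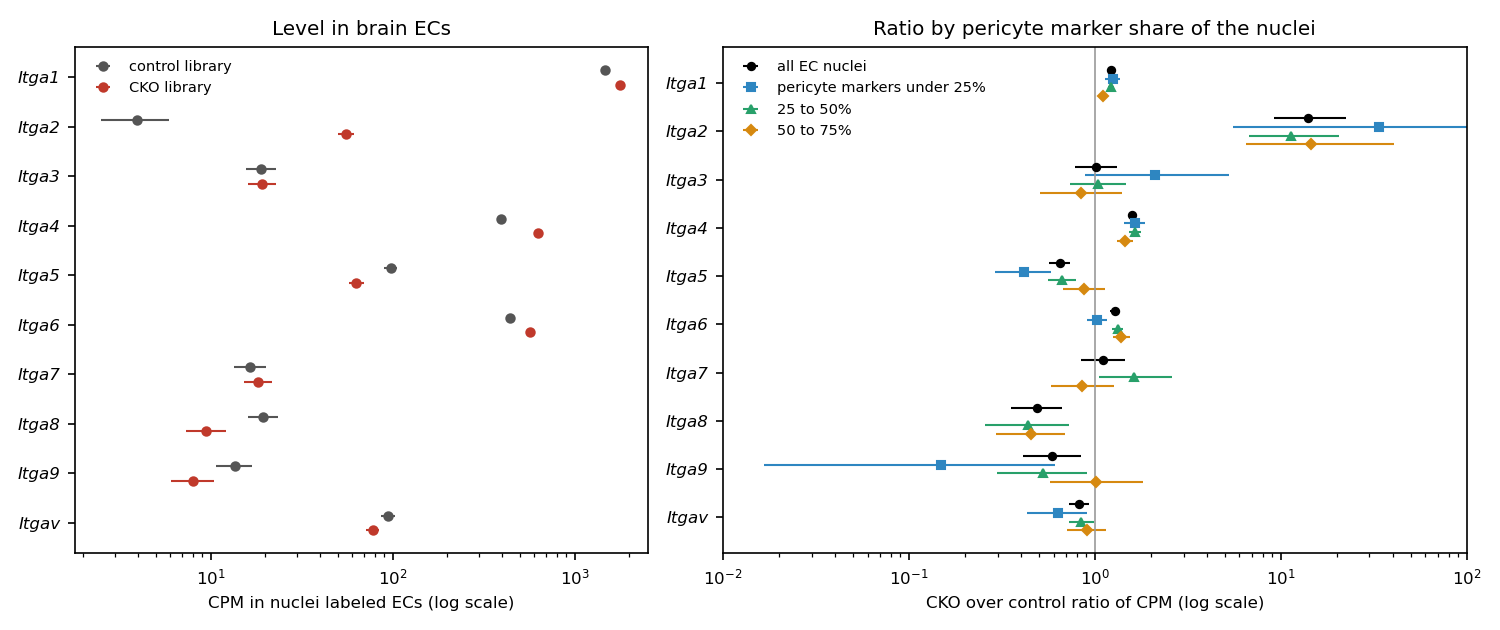
The left panel plots the level of each member in nuclei labeled ECs in the control and the CKO brain library, in CPM on a log axis. The right panel plots the CKO over control ratio, on a log axis, in all EC nuclei and in nuclei grouped by the share of pericyte markers among their pericyte and EC marker UMIs, and bars are 95% intervals for counting error. The upper bar of *Itga2* in the lowest group is cut at the edge of the axis. *Itga2* lies far to the right of a ratio of 1 in each group shown, whereas *Itga9* lies at 1.02 in the group of 50 to 75%.

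Because the EC label held pericyte transcripts, ratios were also taken in EC nuclei grouped by the share of pericyte markers among their pericyte and EC marker UMIs, a grouping chosen after the data had been seen. For *Itga2* the ratio was 33.8 (5.51 to 1390) in nuclei with a share of 0 to 25%, from 1 control UMI and 24 CKO UMIs. It was 11.3 (6.73 to 20.6) at 25 to 50% and 14.6 (6.48 to 40.7) at 50 to 75%. The ratio was thus above 1 in all 3 groups, while nuclei above 75% or with fewer than 10 of these marker UMIs were left out. No *Itga2* UMI was found in nuclei labeled pericytes in either library, of which the CKO library had only 22. For *Itga4* the ratios were 1.64, 1.65 and 1.45 in the same order.

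The members with lower levels behaved differently in this grouping. *Itga5* had ratios of 0.417, 0.665 and 0.878 from the lowest to the highest pericyte share, and the interval of the last, 0.675 to 1.14, included 1. *Itga9* had ratios of 0.525 (0.299 to 0.909) at 25 to 50% and 1.02 (0.572 to 1.83) at 50 to 75%. At the lowest share it had too few UMIs, with 19 in control and 2 in CKO. *Itga8* also had too few there, with 0 in control and 2 in CKO, and ratios of 0.435 and 0.452 above it. *Itgav* was past the limit at the lowest share, at 0.632 (0.433 to 0.911), and had ratios of 0.848 and 0.904 above it. *Itga7*, by contrast, was past the limit upward at 25 to 50%, at 1.63 (1.05 to 2.59). Within the control library *Itga1* was higher at a higher pericyte share, with 1035, 1415 and 1873 CPM, and *Itga6* was lower, with 611, 426 and 360 CPM. Other choices moved calls as well. In nuclei with at least 1000 UMIs, *Itga5* and *Itga9* had ratios of 0.690 and 0.678, short of the limit. In nuclei chosen by UMIs of at least 2 EC markers in place of the label, *Itga6* had a ratio of 1.63 and *Itga5* one of 0.813.

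Shares of nuclei with a UMI were compared after thinning each nucleus to 500 UMIs, which left out 416 control and 343 CKO EC nuclei. An *Itga2* UMI was found in 0.0971% (0.0118 to 0.350) of control and 3.08% (2.45 to 3.81) of CKO EC nuclei, from 2 and 80 nuclei. Before thinning the shares were 0.848% and 11.1%, at median depths of 1347 and 1491 UMIs. In Glut_0 neurons, which should lack endothelial genes, 0.473% of control and 0% of CKO nuclei had an *Itga2* UMI before thinning, at median depths of 5004 and 2314 UMIs. *Itga2* was therefore detected in a minority of CKO EC nuclei, above the share in neurons. *Itga4* was found in 18.9% (17.2 to 20.7) of control and 27.4% (25.7 to 29.1) of CKO EC nuclei after thinning, against 0.823% and 0.205% of Glut_0 neurons.

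Within the CKO library, the 307 EC nuclei with an *Itga2* UMI were set beside the 2294 without, all thinned to 500 UMIs. A tip cell marker UMI was found in 33.9% (28.6 to 39.5) of nuclei with *Itga2* and in 26.4% (24.6 to 28.2) of the others. An arterial marker UMI was found in 50 of 307 nuclei (12.3 to 20.9%) and in 573 of 2294 (23.2 to 26.8%). Capillary markers were found in 70.0% and 71.3%, venous markers in 58.3% and 57.7%, and pericyte markers in 91.9% of both groups. Nuclei with *Itga2* were deeper before thinning, with a median of 3097 UMIs against 1681, and the part of depth in these shares was not tested. Of the other members, *Itga4* was found in 32.2% (27.0 to 37.8) and 26.6% (24.8 to 28.4), *Itga1* in 62.2% and 58.9%, *Itga6* in 23.8% and 26.6%, *Itga5* in 3.58% and 3.31%, and *Itgav* in 3.91% and 3.49%. *Itga3*, *Itga7*, *Itga8* and *Itga9* were found in under 1% of either group. The intervals of the groups overlapped for each of these members.

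Genes of the wider integrin system were counted in the same ECs. Of 8 beta subunits, 2 had enough UMIs and 0 were past 1.5-fold. *Itgb1*, the shared partner of most members, had 823 CPM in control and 748 CPM in CKO ECs, a ratio of 0.909 (0.874 to 0.946), and *Itgb5* had a ratio of 1.02. The study lists beta 1 among its upregulated integrins, whereas the *Itgb1* ratio here lay below 1. The study's values were normalized per nucleus, while the ratio here is of UMIs pooled over nuclei. The measures are thus not alike, and the part of this in the difference was not tested. Of 8 other alpha subunits, 2 had enough UMIs, and *Itga2b*, the platelet fibrinogen receptor subunit, was past 1.5-fold downward at 0.395 (0.224 to 0.677), from 45 and 21 UMIs.

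Among 21 of 23 ligands with enough UMIs, 4 were past 1.5-fold upward and 5 downward, where 21.4% and 9.32% of all genes were, so the upward count was near the background share. *Fn1*, the fibronectin gene and a ligand of *Itga5*, had 1850 CPM in control and 503 CPM in CKO ECs, a ratio of 0.272 (0.262 to 0.283). *Npnt*, encoding the *Itga8* ligand nephronectin, had 14.1 and 27.1 CPM, a ratio of 1.92 (1.47 to 2.52). *Madcam1*, a vascular ligand of alpha 4 integrin, had 3.10 and 17.5 CPM, a ratio of 5.64 (3.42 to 9.85). The others past the limit were *Tnc* and *Ltbp1* upward and *Spp1*, *Nid1*, *Col1a1* and *Lama5* downward. Of 18 adaptors and activators with enough UMIs, *Fermt3* was past the limit upward, at 1.66 (0.981 to 2.87), and *Src* downward, at 0.657 (0.559 to 0.772). All 4 capillary EC markers were past the limit downward, with a summed level of 5856 CPM in control and 2569 CPM in CKO ECs, whereas 0 of 7 arterial markers were. Venous markers summed to 1289 and 1761 CPM, with *Tshz2* past the limit upward and *Vwf* downward, and tip cell markers to 550 and 776 CPM, with *Apln* past it upward. The part of these shifts in EC markers in the levels of the members was not tested.

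The labels other than ECs showed where else each member was read. Among all *Itga2* UMIs of the control brain library, 17.2% of 134 came from nuclei labeled ECs and 33.6% from CP_6, while in the CKO library 89.7% of 426 came from ECs. The EC share of *Itga4* UMIs was 71.5% in control and 96.7% in CKO, and that of *Itga1* was 70.0% and 94.9%. These shares also follow the makeup of each library, in which ECs were 14.9% of control and 20.1% of CKO nuclei. *Itga1* reached 7403 CPM in control nuclei labeled pericytes and 1306 CPM in those labeled vSMCs, against 1464 CPM in ECs.

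**Figure D2:**
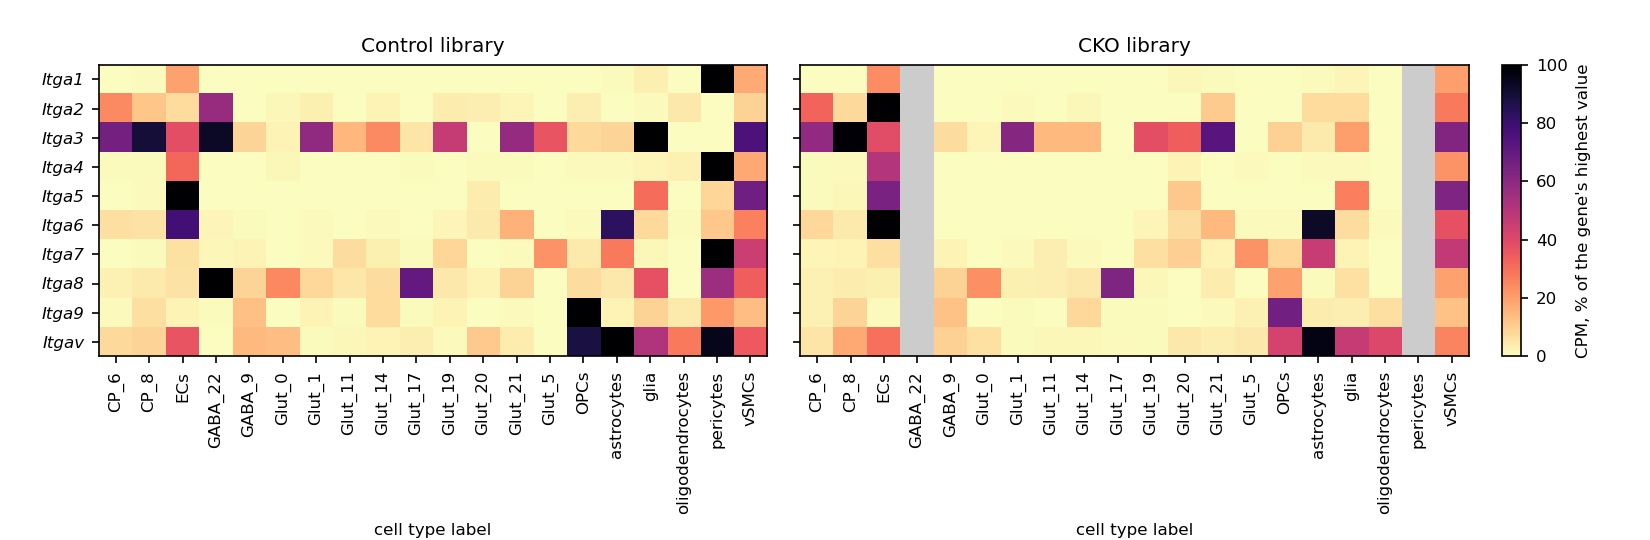
Level of each member in the brain cell type labels of the control (left) and CKO (right) library, as a percentage of the highest CPM of that gene over all fields shown, with gray where a label had under 100000 UMIs. *Itga2* reached its highest value in CKO ECs and *Itga1* in control pericytes.

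In vSMCs, the mural cells of larger vessels, 9 members had enough UMIs, of which 0 were past 1.5-fold upward and 1, *Itga8*, downward, at 0.575 (0.328 to 0.947). Over 6796 genes 13.2% were past the limit upward and 14.2% downward. In the label glia, 0 of 7 members were past it upward and 4 downward, against 19.4% and 18.6% of 6480 genes. *Itga8* had 127 CPM in control and 20.0 CPM in CKO nuclei of that label, a ratio of 0.158 (0.0746 to 0.296). *Itga3*, *Itga9* and *Itga1* had ratios of 0.202, 0.347 and 0.592. That label was led by fibroblast markers, and a different mix of its nuclei in the libraries cannot be told apart from lower levels per nucleus.

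Labels of the brain parenchyma were read in the same way. In astrocytes, which contact vessels through laminin receptors, *Itga6* had 473 and 524 CPM, a ratio of 1.11 (0.958 to 1.28), and *Itgav* had a ratio of 0.962 (0.779 to 1.18). *Itga7* was past the limit upward there, at 1.65 (1.19 to 2.27), as 1 of 4 members with enough UMIs, against 13.4% of genes upward and 22.2% downward. In OPCs *Itga9* had 691 and 460 CPM, a ratio of 0.665 (0.525 to 0.835), and *Itgav* had 229 and 110 CPM, a ratio of 0.482 (0.294 to 0.758). Both of the 2 members counted in OPCs were past the limit downward, where 24.5% of genes were upward and 20.9% downward. Oligodendrocytes went the other way for *Itga9*, at 1.62 (0.991 to 2.63), as 1 of 2 members, against 5.54% of genes upward and 36.5% downward, and *Itgav* had a ratio of 1.43 there. In CP_8, 1 of 5 members was past the limit upward, *Itgav* at 2.12 (1.33 to 3.33), and 1 downward, *Itga1* at 0.615 (0.349 to 1.03), against 9.97% and 16.6% of genes. In CP_6, 0 of 5 members were past it, against 7.32% of genes upward and 7.78% downward. Labels with few CKO nuclei are given for completeness. In pericytes (201 and 22 nuclei) 1 of 2 members was past the limit downward, *Itga4* at 0.613 (0.242 to 1.29), from 151 and 7 UMIs, against 14.4% of genes upward and 47.1% downward. In microglia (129 and 11 nuclei) the 1 member counted, *Itga6*, was past it downward, at 0.266 (0.0709 to 0.708), from 82 and 4 UMIs, against 18.1% of genes upward and 72.5% downward. In Glut_0 neurons *Itga8* had 83.9 and 78.8 CPM, a ratio of 0.939 (0.849 to 1.04). *Itga4* and *Itgav* were past the limit downward in these neurons, at 0.170 (0.108 to 0.258) and 0.464 (0.379 to 0.565), as 2 of 3 members, against 5.29% of genes upward and 14.7% downward. Over all 11 neuron labels, 0 of 20 member tests were past the limit upward and 8 downward, against 6.53% and 13.3% of 57060 gene tests. *Itga8* was past it downward in Glut_1, at 0.342 (0.238 to 0.481), in GABA_22, at 0.597 (0.265 to 1.18), and in Glut_11, at 0.627 from 38 and 13 UMIs. In Glut_17 its ratio was 0.906 (0.753 to 1.09).

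Over 38 profiles of brain labels and libraries with at least 100000 UMIs, among 14448 genes, the genes most like each of 4 members in log2(CPM + 1) were listed as a description. Those most like *Itga1* were *Igfbp7*, *Rbpms* and *Epas1*, with Pearson correlations of 0.962, 0.956 and 0.952. For *Itga4* they were *Apold1*, *Rasgrp3* and *Itga1*, at 0.916, 0.912 and 0.906. For *Itga6* they were *Sat1*, *Slco1c1* and *Sparcl1*, at 0.920, 0.909 and 0.900. *Itga2* had weaker partners, *Srf*, *4931403E22Rik* and *Tcaf2*, at 0.714, 0.703 and 0.702, and its correlation with *Itga1* was 0.403. Profiles of the same library shared its depth and its background RNA.

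*Itga2* and *Itga1* lie next to each other on chromosome 13 of GRCm39, at chr13:114969617-115068636 and chr13:115089632-115238677, both on the minus strand. *Mocs2*, on the plus strand, overlaps both, and *Pelo* lies within *Itga1*. In ECs *Mocs2* had 17.1 CPM in control and 18.5 CPM in CKO, a ratio of 1.09 from 99 and 127 UMIs, and *Pelo* had a ratio of 1.42 (1.24 to 1.63). At lower coordinates, *Ndufs4* had a ratio of 1.32 (1.19 to 1.47), and *Fst* had 0 UMIs in both. The whole neighborhood thus did not share the ratio of *Itga2*. No source names whether reads were counted by strand.

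The promoters of the collagen receptor pair and of *Itga4* are shown, as *Itga2* and *Itga4* were the members past 1.5-fold upward in ECs and *Itga1* is the neighbor of *Itga2*. Each runs from 250 bases before to 50 after the transcription start, with starts from GENCODE on GRCm39 and matches in capitals. Searched on both strands were CAGAC (the core bound by SMAD proteins), TGANTCA (AP-1), GGGCGG (SP and KLF factors), the CArG box and the NF-kB motif, all chosen after the values had been seen. *Itga2* lies at chr13:115068587-115068886, *Itga1* at chr13:115238628-115238927 (both minus strand) and *Itga4* at chr2:79085410-79085709 (plus strand).
Itga2: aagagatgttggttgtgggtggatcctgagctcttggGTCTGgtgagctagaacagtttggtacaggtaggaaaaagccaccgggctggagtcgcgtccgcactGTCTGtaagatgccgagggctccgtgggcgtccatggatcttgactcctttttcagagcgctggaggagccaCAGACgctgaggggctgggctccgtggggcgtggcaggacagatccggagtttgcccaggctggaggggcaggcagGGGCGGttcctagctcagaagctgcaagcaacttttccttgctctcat
Itga1: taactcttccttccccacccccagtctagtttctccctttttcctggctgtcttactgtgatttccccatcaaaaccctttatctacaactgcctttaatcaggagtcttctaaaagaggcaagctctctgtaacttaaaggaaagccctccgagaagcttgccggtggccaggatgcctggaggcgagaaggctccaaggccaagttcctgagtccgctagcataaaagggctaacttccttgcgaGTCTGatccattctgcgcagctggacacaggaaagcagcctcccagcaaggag
Itga4: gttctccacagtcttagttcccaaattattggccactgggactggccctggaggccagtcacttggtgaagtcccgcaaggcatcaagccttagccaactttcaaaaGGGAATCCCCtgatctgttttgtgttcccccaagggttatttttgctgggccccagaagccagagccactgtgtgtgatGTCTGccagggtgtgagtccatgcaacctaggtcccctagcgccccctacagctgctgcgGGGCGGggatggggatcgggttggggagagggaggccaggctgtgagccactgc

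CAGAC or its complement was found 3 times before the start of *Itga2* and 1 time before that of *Itga4*. For *Itga1* it was found 1 time, in a match that spans the start. GGGCGG was found 1 time each for *Itga2* and *Itga4*, and the NF-kB motif 1 time for *Itga4*. Among 21751 promoters of the same length, 48.4% held CAGAC, 42.5% GGGCGG, 8.97% the NF-kB motif, 7.14% TGANTCA and 1.54% the CArG box. These matches describe the sequence and do not show binding.

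In the retina, libraries were the replicates, and UMIs summed per library and cell type were tested with edgeR's quasi-likelihood test with Benjamini-Hochberg adjustment, with the kit as covariate. In 10 fitted cell types 68 member tests were made, and 0 members were called at an adjusted p under 0.05. Over all genes 4 of 121773 tests, or 0.00328%, were called. The comparison has a single control library, and the part of this in the low count was not tested. At an unadjusted p under 0.05, edgeR had 5 of the 68 member tests, or 7.35%, against 2.98% of all gene tests, and DESeq2 called 0 and also had 5. The fit assumes that the control library varies like the CKO libraries, and in an exact permutation test of 1 against 10 libraries no p can be under 0.0909. The labels place the control in batch 1 with CKO replicates 1 to 3 only, and the other CKO libraries in batches 2 and 3.

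The member with the smallest p was *Itga4* in immune cells. The control library had 17.5 CPM, from 2 UMIs in 29 nuclei, and the 10 CKO libraries had 80.1, 157 and 243 CPM as lowest, median and highest value. Every CKO library lay above the control. The log2 fold change in edgeR was 2.99 (SE 0.92, adjusted p = 0.998), and the two-sided exact permutation p was 0.0909. *Itga5* had 0 UMIs in the control immune cells and 15.4, 24.6 and 93.0 CPM in the CKO libraries, of which the median is below the 26.2 CPM that 3 control UMIs would give.

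The makeup of the immune label differed too. Of 8 other leukocyte markers, 2 had a UMI in the control library, with a sum of 17.5 CPM, and 3 to 7 in the CKO libraries, with sums from 31.1 CPM (replicate 7) to 470 CPM (replicate 5), where *Ms4a7* led. In the control library 27 of 29 immune nuclei had UMIs of microglia markers and none of other leukocyte markers, and 0 of these 27 had an *Itga4* UMI. In the CKO libraries 340 of 691 nuclei were of that kind, and 11.5% (8.29 to 15.3) of them had an *Itga4* UMI. The 691 nuclei were pooled over all 11 CKO libraries, with 229 from replicate 5. Intervals in this paragraph cover counting error only, not the spread between libraries. A further 73 CKO nuclei had only other leukocyte markers, and 50.7% (38.7 to 62.6) of those had an *Itga4* UMI, at a lower median depth of 817 UMIs against 2174.5. Of 198 CKO nuclei with both kinds of marker, 46.5% (39.4 to 53.7) had an *Itga4* UMI. Of the 80 CKO nuclei with neither kind, 23.75% (14.9 to 34.6) had an *Itga4* UMI. Nuclei with any other leukocyte marker thus numbered 271 of 691 in the CKO libraries and 2 of 29 in the control library, and 1 of these 2 held both control *Itga4* UMIs. The part of this makeup in the difference between genotypes was not tested.

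In Müller glia (MG), *Itga9* had 197 CPM in the control library and 268, 364 and 508 CPM as lowest, median and highest of 10 CKO libraries. All CKO libraries were higher than the control, with a log2 fold change of 0.88 (SE 0.35, edgeR adjusted p = 0.779) and an exact permutation p of 0.0909. Within batch 1, the CKO libraries had 333, 322 and 319 CPM, and edgeR gave a smaller log2 fold change of 0.64 (SE 0.18, adjusted p = 0.333). With batch as covariate it was 0.65 (SE 0.29, adjusted p = 0.712). *Itgav*, the other abundant member of these cells, had 243 CPM in control and 220, 290 and 353 CPM in CKO libraries, so the control lay inside their range. *Itga2* in MG followed the kit, with a mean of 9.94 CPM in v4.0 PLUS and 26.5 CPM in v5.0 CKO libraries, and the control, made with v4.0 PLUS, had 6.62 CPM.

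In glycinergic amacrine cells *Itga3* and *Itga6* had lower control values, and *Itga7* had too few UMIs to be tested. *Itga3* had 6.50 CPM in control and 7.96, 11.7 and 16.0 CPM in the 10 CKO libraries, with a log2 fold change of 0.81 (SE 0.35). *Itga6* had 8.77 CPM in control and 11.6, 15.9 and 24.2 CPM in the CKO libraries, with a log2 fold change of 0.87 (SE 0.40). For both, all 10 CKO libraries lay above the control, and neither was called over the genes of that cell type.

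**Figure D3:**
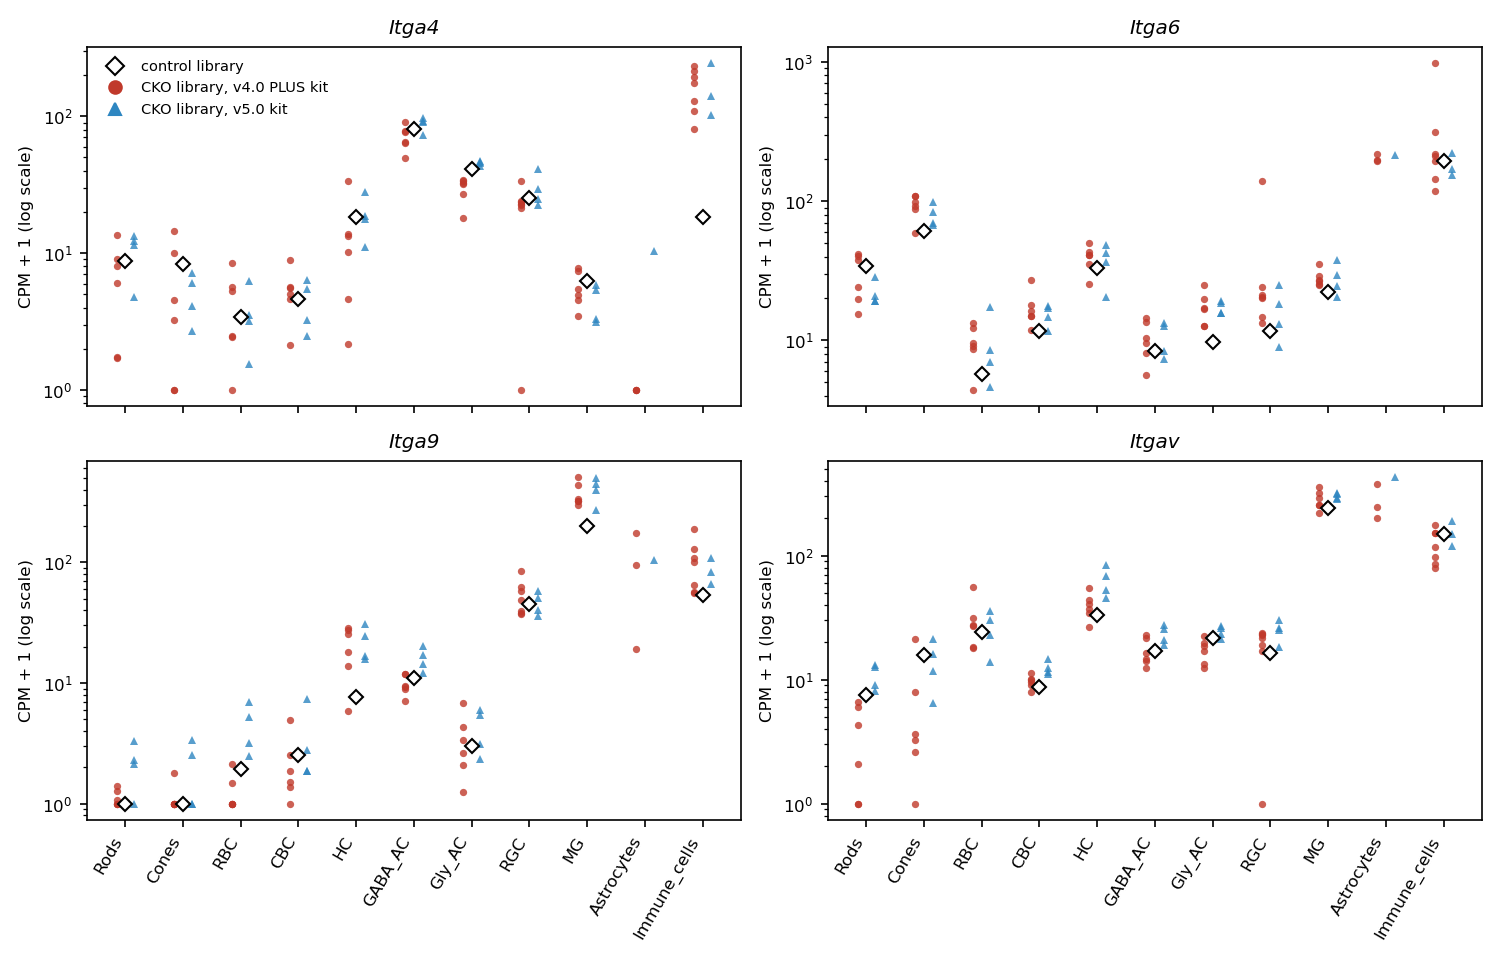
Level of *Itga4*, *Itga6*, *Itga9* and *Itgav* in each retinal cell type and library, as CPM + 1 on a log axis. Diamonds mark the control library, and circles and triangles the CKO libraries by PIPseq kit. In immune cells the control diamond of *Itga4* lies below all CKO points, and *Itga6* has a single high CKO point at 976 CPM.

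Levels were then ordered across the 10 fitted cell types, without astrocytes, for each member within the CKO libraries, with two-sided exact sign-flip permutation tests between neighbors and adjustment over 90 pairs, of which 22 were called. *Itga9* had the clearest order. It was higher in MG than in immune cells (log2 difference 2.24, higher in 9 of 9 libraries, exact adjusted p = 0.0251), followed by RGCs, horizontal cells (HC), GABAergic and glycinergic amacrine cells, with each step called. Below glycinergic amacrine cells no neighbors differed beyond their spread. Among these types *Itgav* was likewise highest in MG, then in immune cells, HC and rod bipolar cells (RBC), with each of these steps called. The step from HC to RBC was not called without CKO replicates 4 and 5. MG markers were also read under the HC label, with sums from 124 CPM (CKO replicate 5) to 634 CPM (CKO replicate 8). The part of RNA from MG in the *Itga9* and *Itgav* levels of other labels was not tested.

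*Itga4* was highest in immune cells, followed by GABAergic amacrine cells (log2 difference 0.96, higher in 8 of 9 libraries, exact adjusted p = 0.0335) and by glycinergic amacrine cells (log2 difference 1.14, higher in 10 of 10). The call between immune and GABAergic amacrine cells was lost without CKO replicates 4 and 5. Glycinergic amacrine cells and RGCs did not differ beyond their spread. *Itga6* was highest in immune cells, then in cones, HC and MG, with each step called, while MG and rods did not differ beyond theirs. The step from HC to MG was not called without CKO replicates 4 and 5. *Itga5* was higher in immune cells than in MG (log2 difference 1.97, higher in 9 of 9 libraries, exact adjusted p = 0.0251), and no lower neighbors differed. *Itga3* was highest in RBC and RGCs, which did not differ, followed by GABAergic and then glycinergic amacrine cells. Its call between RGCs and GABAergic amacrine cells was also lost without these 2 replicates. Among the fitted types *Itga8* was highest in both amacrine classes, which did not differ beyond their spread, and lower in RGCs.

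*Itga2* was highest in MG and glycinergic amacrine cells, which were not separated (exact adjusted p = 0.0651), and lower in HC than in the latter. That last call was lost without CKO replicates 4 and 5. *Itga1* and *Itga7* had 0 called neighbors. Retinal astrocytes entered in 4 CKO libraries only and were not tested. There *Itgav* had 313 ± 108 CPM, *Itga6* 205 ± 11.9 CPM, *Itga8* 170 ± 57.7 CPM and *Itga1* 60.4 ± 11.9 CPM (SD, n = 4). The astrocyte means of *Itga1*, *Itga8* and *Itgav* were above those of every fitted cell type. The retinal labels had their own markers highest among all labels, except cone bipolar cells, whose bipolar markers were higher in RBC, and glycinergic amacrine cells, whose amacrine markers were higher in GABAergic ones. The 25 nuclei labeled RGCs in CKO replicate 4 stood apart in their markers. Ganglion cell markers summed to 83.0 CPM there, with 2 of 5 detected, against 735 to 1359 CPM in the other libraries, and MG markers to 747 CPM, led by *Slc1a3*.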

How the data were processed

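Counts were used as deposited, as whole UMIs of every gene in every nucleus. The authors made these counts with PIPseeker 3.3.0 and removed background with CellBender 0.3.2. Doublets were taken out by the authors with SOLO (scVI-tools 1.2.2-post2), and remaining mixed nuclei by manual curation, along with multiplet clusters in CKO retina replicates 4 and 5. No further doublet filter was applied. The labels name mm10 and Seurat, the methods GRCm39, and coordinates here are those of GRCm39 in GENCODE vM39. Cell type, batch and kit are the authors' labels. PIPseq v4.0 PLUS was used for the control and CKO replicates 1 to 7 and v5.0 for the others.

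UMIs were summed per library and cell type and divided by their total (CPM). Brain ratios have exact conditional binomial 95% intervals. Retina sums with at least 20 nuclei and 20000 UMIs entered edgeR 4.0.16 (TMM, filterByExpr), with DESeq2 1.42.0 as an alternative, in R 4.3.3, tested on simulated data. Orders used log2(CPM + 1) over at least 6 libraries. Sums, intervals and exact tests were made with numpy 2.4.6 and pandas 2.3.3 in Python 3.11.15, with scipy 1.17.1 for distributions, and plots with matplotlib 3.10.9. Members and lists were chosen with earlier results of these data known. Named are all 10 members, genes of the integrin lists past 1.5-fold, markers where a label is described, the 3 genes most like 4 members and genes within 500 kb of *Itga1* or *Itga2*. The study's checklist calls its replicates biological, and the sources do not give the animals of each retina library. The p-values rest on the spread between CKO libraries, as the single control library shows none. This spread may not be one between animals.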

Additional observations from a re-analysis of the deposited data

Results flagged for a closer look

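In 65 groups of 4 to 10 CKO retina libraries (a member in a cell type, with at least 50 UMIs), 5 held a library far from the others, and chance gives about 1 in 20. *Itga6* in immune cells was 976 CPM in CKO replicate 4, from 42 UMIs in 65 nuclei, against 117 to 314 CPM in the other 9. Markers under that label also stood apart in this library, among them rod markers at 0, against 1642 to 2319 CPM in the other CKO libraries, and not all marker sums are reported here. Their part in the *Itga6* value was not tested. *Itga6* in cone bipolar cells was 25.9 CPM in CKO replicate 2, against 10.6 to 16.8 CPM. *Itga1* in GABAergic amacrine cells was 16.7 CPM in CKO replicate 3, against 1.06 to 8.11 CPM. *Itga2* in glycinergic amacrine cells was 20.2 CPM in CKO replicate 8, against 5.67 to 12.4 CPM. *Itgav* in RBC was 54.7 CPM in CKO replicate 6, against 12.8 to 34.4 CPM. Groups of 11 libraries were not examined in this way.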

How the results depend on the processing

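In brain ECs 6 of 10 members had a ratio above 1. The number past 1.5-fold was 5. It was 3 in nuclei with at least 1000 UMIs, 2 in nuclei with no pericyte marker UMI (of 3 with enough UMIs), 2 at a fold of 2 and 3 at 200 or more UMIs (of 8). Over groups of pericyte share added after the data were seen, it was 3 at 0 to 25% (of 5) and 2 at 50 to 75%, with fewer nuclei in each, and 6 at 25 to 50%. It was 7 in nuclei thinned to 500 UMIs with no floor on thinned UMIs, and 3 (of 6) with the floor of 50 applied to them, a count added after the data were seen. It was 6 with nuclei weighted equally, 5 in nuclei chosen by EC markers, 5 at 10 or more UMIs and 4 with TMM factors. No member was past the limit in every setting in which it had enough UMIs, apart from *Itga2* and *Itga8*. *Itga4* was short of it with TMM factors and at 50 to 75%, *Itga5* at 1000 UMIs, by EC markers and at 50 to 75%, and *Itga9* at 1000 UMIs and at 50 to 75%. Members short of it at first but past it in some settings were *Itga1*, *Itga3*, *Itga6*, *Itga7* and *Itgav*, with ratios of 1.11 to 2.46, 0.842 to 2.95, 1.02 to 1.63, 0.686 to 1.65 and 0.384 to 0.904 over the alternatives. The ends at 2.95 for *Itga3*, 1.65 for *Itga7* and 0.384 for *Itgav* come from settings in which the member had under 50 UMIs. *Itga9* turned direction at 50 to 75%, at 1.02. The cause was not tested. *Itga2* stayed between 11.3 and 34.8 and *Itga4* between 1.45 and 1.96 in all 9 alternatives. In the retina 0 members were called under each alternative, with and without each CKO replicate (0 to 0). *Itga4* in immune cells kept log2 fold changes of 2.79 to 3.10, with adjusted p of 0.222 to 1.00. Of the 22 called pairs of neighbors, 0 were called with v4.0 PLUS libraries alone, where the smallest possible p was 0.0156, and 22 of 22 kept their direction. Without CKO replicates 4 and 5, an alternative added after the data were seen, 15 were called and 22 of 22 kept their direction. The 7 lost were *Itga2* (glycinergic amacrine cells and HC), *Itga3* (RGCs and GABAergic amacrine cells), *Itga4* (immune and GABAergic amacrine cells, RGCs and HC), *Itga6* (HC and MG), *Itga8* (immune and cone bipolar cells) and *Itgav* (HC and RBC). With the 4 v5.0 libraries alone, under the minimum of 6 used elsewhere, 0 of 73 pairs were called, as no p could be under 0.125, and 14 of 14 called pairs that could be compared kept their direction. Each of these subsets is part of the libraries that set the order, so the kept directions are not independent of it. No paired analysis was possible because the single control library has no replicate number to pair with a CKO library. Depth limits *Itga3*, *Itga7*, *Itga8* and *Itga9* in ECs.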

Other observations

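*Itga8* UMIs of the brain came mainly from neurons, of which Glut_0 held 40.9% (control) and 57.7% (CKO), and the level was highest in GABA_22 at 337 CPM and Glut_17 at 237 CPM in control. *Itga9* was highest in OPCs, at 691 CPM in control, which held 360 of its 1439 control UMIs. Under the RGC label *Itga6* was 138 CPM in CKO replicate 4, from 5 UMIs in 25 nuclei, against a median of 19.1 CPM over 11 CKO libraries. Those nuclei had ganglion cell markers at 83.0 CPM, MG markers at 747 CPM, EC markers at 277 CPM and rod markers at 0, and the part of this in the *Itga6* value was not tested.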
